A study of Bos taurus with 16 samples.

Results

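ANKRD37 (ENSBTAG00000018453, merged locus XLOC_026158) is 1 of the 44265 features counted in the adipose tissue and muscle of pre-weaned dairy calves. It was selected by its identifier, and the identifier itself was chosen from an earlier analysis of the same counts, in which the gene was upregulated in the muscle of 5-HTP-supplemented calves. Its muscle values are therefore a description with no test, and so are the differences between tissues, which use the same muscle libraries. A test is given only for the treatments in adipose tissue. RNA-Sequencing covered subcutaneous white adipose tissue, taken near the tail head and pelvis, and gluteus medius (rump) muscle of 8 Holstein bull calves that were 21 days old at the start. For 10 days, 4 calves received milk replacer with 5-hydroxytryptophan (5-HTP, 90 mg/day), the immediate precursor of serotonin, and 4 control calves received it with saline (CON). All calves drank 8 L of milk replacer a day and were given xylazine, a sedative, before captive bolt and exsanguination. Each library came from 1 tissue of 1 animal, which makes 16 libraries. Libraries are numbered 1 to 4 in CON and 5 to 8 in 5-HTP-supplemented calves in both tissues, and the labels do not state that equal numbers are the same calf.

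ANKRD37 encodes a small protein with ankyrin repeats, a motif through which proteins bind one another. It is known as a gene that hypoxia-inducible factor (HIF) switches on directly when oxygen is low. HIF pairs an oxygen-sensitive alpha subunit with ARNT. With oxygen, EGLN enzymes hydroxylate the alpha subunit, VHL marks it for destruction, and target genes stay quiet. Low oxygen lets the alpha subunit build up in the nucleus and pair with ARNT. The pair then binds short elements near genes of glycolysis, oxygen delivery and cell survival. Muscle and adipose tissue are both known to use this pathway, muscle during exercise and adipose tissue as its cells enlarge. Oxygen and HIF protein were not analysed here. Among RefSeq genes of the assembly ARS-UCD2.0, ANKRD37 lies between LRP2BP and UFSP2 and overlaps 0 annotated genes. The files use ARS-UCD1.2, and no positions are given for that reason.

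The 8 adipose libraries held 17289845 to 25221353 counts and the 8 muscle libraries 20655954 to 28649548. Levels are given in counts-per-million (CPM) of a library. Within each tissue, libraries were scaled by TMM, the trimmed mean of M-values, with factors between 0.838 and 1.08. The logFC is the log2 ratio of 5-HTP-supplemented to CON calves unless tissues are compared. At these depths 3 counts in a library equal 0.105 to 0.174 CPM, so every ANKRD37 value, from at least 29 counts, lay above that floor. As a check of the labels, the titin feature TTN and IGFN1, both genes of striated muscle, had at least 285 and 21067 counts in every muscle library and at most 11 and 8 in any adipose library. The planned adipocyte markers could not be checked, since gene symbols were available for few features. CFD, a factor secreted in quantity by adipocytes, had 200 to 1210 counts in adipose libraries and 23 to 177 in muscle libraries.

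In muscle, ANKRD37 was measured at 2.01, 2.64, 1.75 and 2.53 CPM in CON calves 1 to 4, from 43, 76, 45 and 75 counts. In 5-HTP-supplemented calves 5 to 8 it was at 4.91, 4.80, 6.10 and 5.34 CPM, from 152, 116, 136 and 109 counts. All 4 supplemented calves lay above all 4 CON calves, and the lowest of them stood well clear of the highest CON calf. Group means (± SD, n = 4) were 2.23 ± 0.420 CPM for CON and 5.29 ± 0.587 CPM for supplementation. This is a logFC of 1.24 (standard error 0.26), a ratio of 2.36. Scaling to total counts alone gave 2.23 ± 0.570 and 5.32 ± 0.431 CPM (SD, n = 4). These values chose the gene and carry no test. For background, 12 of the 16878 genes tested in muscle, or 0.0711%, were called higher in supplemented calves. The call was at a false discovery rate (FDR) of 0.20 or less by the edgeR likelihood ratio test. ANKRD37 was among them by the way it was chosen, so its place there is no support. Of all genes tested, 1.21% had all 4 supplemented calves above all 4 CON calves. Under the quasi-likelihood test of edgeR, which takes the error of the dispersion estimates into account, 1 gene was called in muscle and it was not ANKRD37.

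The 4 CON calves differed little among themselves in muscle, and so did the 4 supplemented calves. The coefficient of variation was 18.8% in CON and 11.1% in 5-HTP-supplemented calves, while counting error alone would give 13.4% and 8.91% at these counts. The counts of a group varied 2.08 times (CON) and 1.56 times (5-HTP) as much as counting alone, by chi-square per degree of freedom. The biological coefficient of variation fitted to ANKRD37 in muscle was 22.9%, below the 31.0% of the trend for genes of its level. Leaving out each calf in turn kept the muscle logFC between 1.14 and 1.33.

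**Figure D1:**
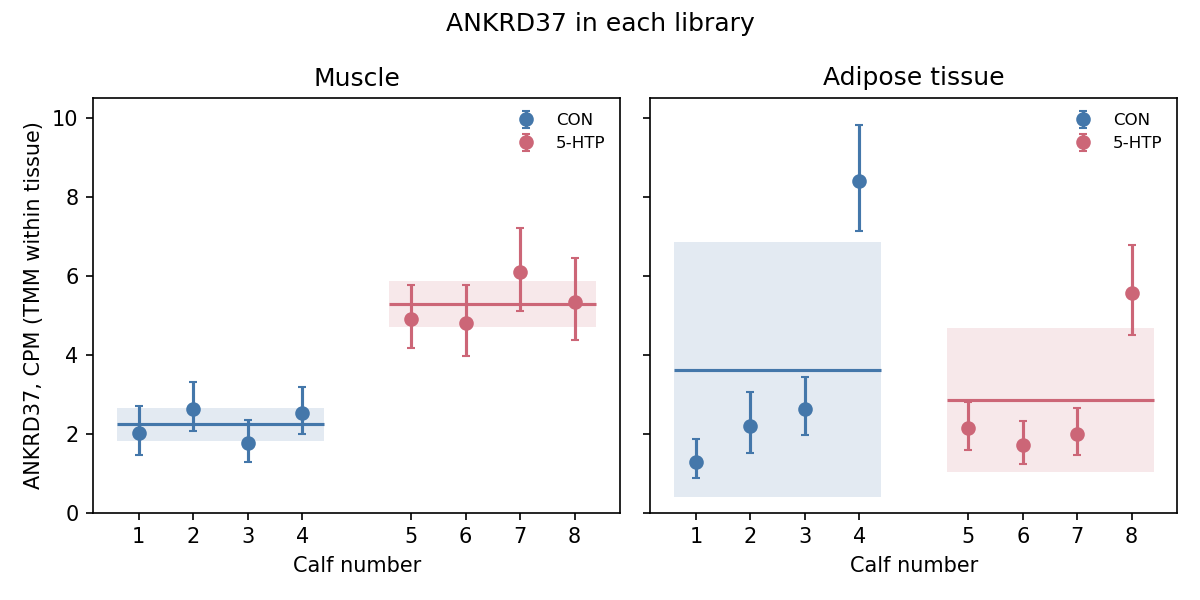
ANKRD37 in CPM (TMM within each tissue) for each library, with exact Poisson 95% intervals of the counts as bars, group means as lines and 1 SD as shading. In muscle the CON calves lie at 1.75 to 2.64 CPM and the supplemented calves at 4.80 to 6.10, whereas in adipose tissue calves 4 and 8 stand above the others of their own group.

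In adipose tissue, no difference in ANKRD37 between treatments was detected, and the values within each group were spread widely. CON calves 1 to 4 had 1.29, 2.18, 2.62 and 8.39 CPM, from 29, 34, 53 and 159 counts. The 5-HTP-supplemented calves 5 to 8 had 2.14, 1.72, 1.98 and 5.56 CPM, from 51, 42, 46 and 96 counts. The groups overlapped over most of their range, and the highest value of each group belonged to a single calf, calf 4 in CON and calf 8 in 5-HTP. Mean levels (± SD, n = 4) were 3.62 ± 3.23 CPM for CON and 2.85 ± 1.81 CPM for supplementation. This gave a logFC of -0.35 (standard error 0.61, FDR = 0.999 by the edgeR likelihood ratio test over 20167 genes), and the 95% interval ran from -1.55 to 0.85, or from 0.342 to 1.80 as a ratio. Across the adipose genes, 0.109% were called at an FDR at or under 0.20 in either direction. A two-sided exact permutation test over calves on log2 CPM gave a difference of -0.15 and p = 0.771, where 0.0286 is the lowest p that the 4 and 4 calves can give. Without CON calf 4 the logFC was 0.47 (FDR = 0.998, edgeR) and without 5-HTP calf 8 it was -0.89, so its sign rested on CON calf 4. Without both, a choice made after the values were seen, it was -0.06.

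The spread between calves in adipose tissue exceeded counting error by far. The coefficient of variation was 89.2% in CON and 63.6% in 5-HTP-supplemented calves, against 14.9% and 13.7% from counting. Counts varied 56.7 and 23.1 times as much as counting alone, by chi-square per degree of freedom. The fitted biological coefficient of variation was 58.7%, above the 45.5% of the trend in adipose tissue, the opposite side from muscle. Calves 4 and 8 had 18892233 and 17649039 counts in all and were among the 3 shallowest adipose libraries, and the shallowest, CON calf 2 with 17289845, had 2.18 CPM. The part of depth in these values was not tested. Between tissues the logFC for 5-HTP differed by 1.59 (muscle less adipose tissue, standard error 0.67), and by 0.82 without the libraries numbered 4. Because the muscle difference that chose the gene is part of this value, it was not tested.

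**Figure D2:**
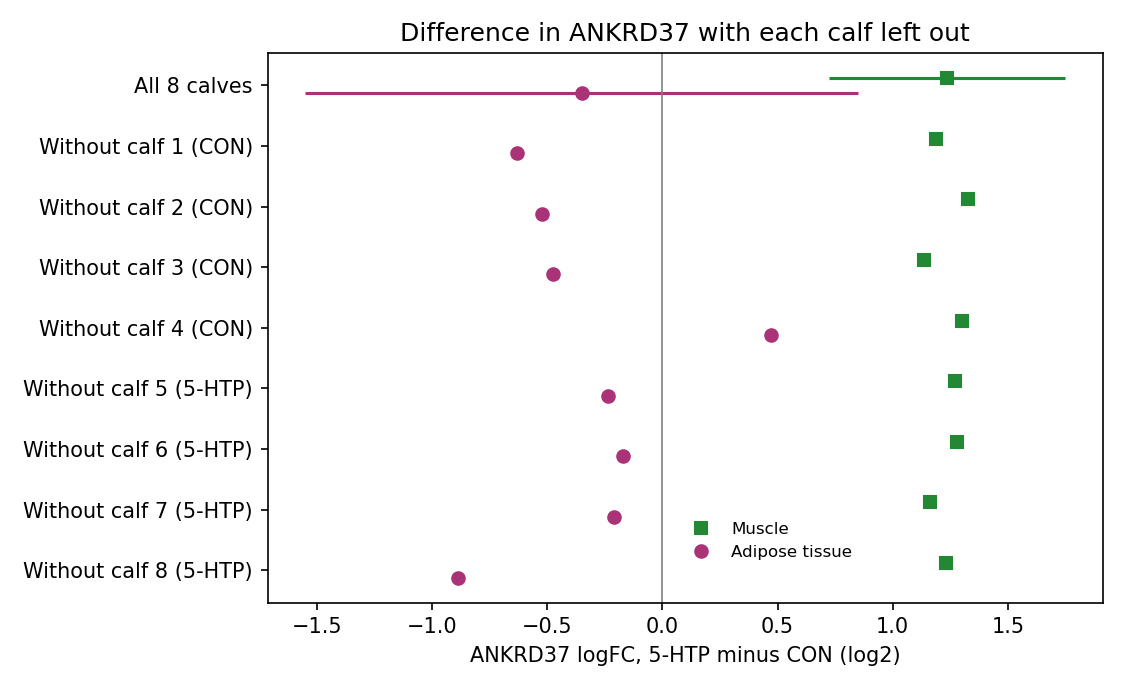
ANKRD37 logFC of 5-HTP-supplemented relative to CON calves (log2 scale) with all 8 calves, where lines give the 95% interval, and with each calf left out. In muscle the values stay between 1.14 and 1.33, and in adipose tissue they run from -0.89 to 0.47, with the value above 0 obtained without calf 4.

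A few genes of other cell types were also measured. Bulk tissue cannot tell fewer cells of a type from less RNA per cell. Of the few features with a symbol, C1QB and SIGLEC1 are expressed by macrophages, and CFD (adipsin) is a complement factor secreted in quantity by adipocytes. In muscle, C1QB and SIGLEC1 together ranged from 5.997 to 18.7 CPM in CON and from 2.49 to 5.34 CPM in 5-HTP-supplemented calves. CFD ranged from 3.12 to 6.14 CPM in CON and from 1.03 to 2.48 CPM in 5-HTP-supplemented calves, so for both the groups lay apart in the direction opposite to ANKRD37. The titin feature and IGFN1 did so too. TTN here is XLOC_017327, an unannotated locus that the study paired with titin, and the annotated titin gene was not examined. It ranged from 32.6 to 59.4 CPM in CON and from 12.8 to 21.1 CPM in 5-HTP-supplemented calves. IGFN1 ranged from 1709 to 4333 CPM in CON and from 928 to 1604 CPM in 5-HTP-supplemented calves. All of these genes were listed by the study as changed in the same muscle samples, so groups that lie apart are what that choice gives. For background, 232 of the 16878 genes tested in muscle had all supplemented calves below all CON calves. In every library both the macrophage sum and CFD were above 0. In adipose tissue, 5-HTP calf 8, the supplemented calf with the most ANKRD37, had the lowest C1QB and SIGLEC1 sum (19.4 CPM) and the lowest CFD (11.6 CPM). CON calf 4, the highest for ANKRD37, had the highest sum of C1QB and SIGLEC1 (96.1 CPM) and a CFD value (39.8 CPM) inside the CON range of 32.6 to 77.7. The adipose calves with the most ANKRD37 thus stood at opposite ends for the macrophage sum. The part of other cells in the ANKRD37 values was not tested.

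Averaged over treatments, ANKRD37 was higher in muscle than in adipose tissue when libraries were scaled to each other with TMM over all 16. On that scale, supplemented muscle came first with a mean of 7.99 ± 0.931 CPM, before CON muscle with 3.37 ± 0.626 CPM, CON adipose tissue with 2.38 ± 2.10 CPM and supplemented adipose tissue with 1.88 ± 1.18 CPM (SD, n = 4). On the same scale supplemented muscle lay apart from the other groups, from 7.32 to 9.32 CPM. CON muscle (2.60 to 3.99 CPM) fell inside the range of CON adipose tissue (0.863 to 5.48 CPM), and supplemented adipose tissue (1.15 to 3.64 CPM) overlapped both. With total counts alone, no group lay apart: supplemented muscle (4.83 to 5.88 CPM) fell inside the range of CON adipose tissue (1.38 to 8.42 CPM) and overlapped supplemented adipose tissue (1.67 to 5.44 CPM), and CON muscle had the lowest mean of the 4 groups, 2.23 CPM against 3.61 and 2.83 CPM in CON and supplemented adipose tissue. With TMM, muscle exceeded adipose tissue by a logFC of 1.30 (standard error 0.34), an average over treatments that includes the muscle libraries by which the gene was chosen and is given with no test. Differences between tissues were common, since 67.5% of the 21849 genes tested were called at an FDR of 0.05 or less (edgeR).

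The direction in CON calves depended on the scaling. The 10 most abundant loci took 21.3% to 27.0% of the counts in muscle libraries and 5.55% to 7.59% in adipose libraries, and the median logFC over all genes was -0.14 with TMM and -1.33 when total counts alone were used. With total counts, the ANKRD37 logFC averaged over treatments was 0.11. Relative to the median of all genes, ANKRD37 was higher in muscle by 1.44 under both scalings. A change of scaling moves all genes by nearly the same amount, so this equality was fixed in advance. The value depended on the genes included and was 1.79 with no filter. Within CON calves the logFC was 0.48 with TMM and -0.70 with total counts. Within 5-HTP-supplemented calves it was 2.03 with TMM and 0.92 with total counts, so the average was carried mainly by the supplemented calves.

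**Figure D3:**
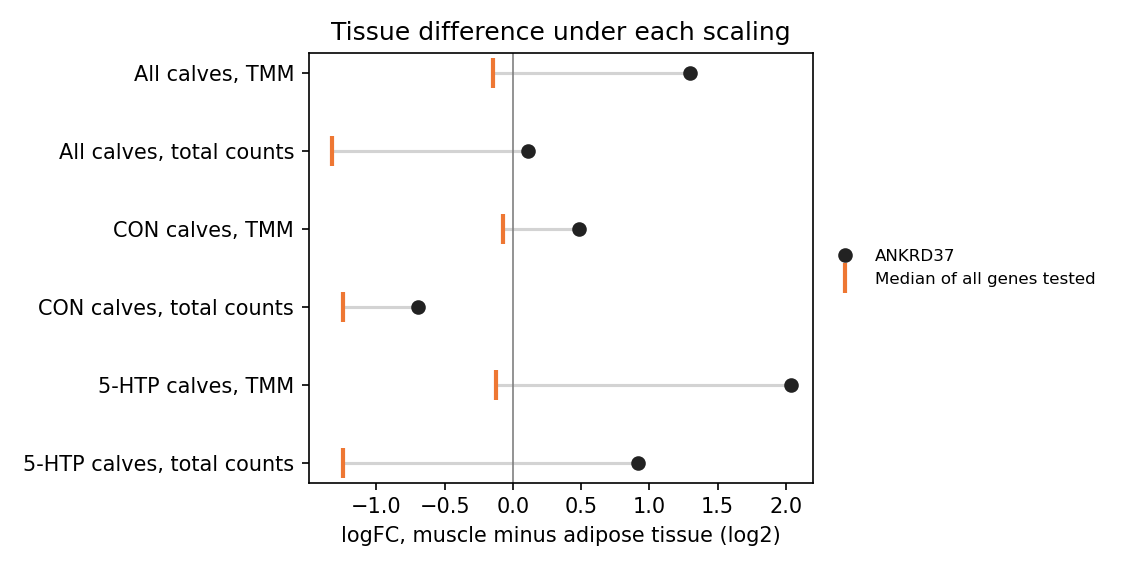
Difference between muscle and adipose tissue (logFC, log2 scale) for ANKRD37 (points) and for the median of all genes tested (orange ticks), over all calves and within each treatment, with TMM and with total counts. ANKRD37 lies above the median of all genes in every row, by a gap that a change of scaling hardly moves. In CON calves its own value is 0.48 with TMM and -0.70 with total counts.

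The likeness of other genes to ANKRD37 was described by Pearson's r of log2 CPM, with no test, because libraries of one tissue share treatment, depth and composition. Across the 8 muscle libraries, 0.107% of the other 16877 genes had an r above 0.9 with it. The highest values belonged to the unannotated loci XLOC_003249 (r = 0.97, 4 to 28 counts) and XLOC_039781 (r = 0.96, 2 to 24 counts), both thinly counted. Their own muscle logFC was 1.62 and 2.08, and the study listed XLOC_039781 as changed in muscle. The treatment difference thus enters their r, and their r within groups was not examined. None of the 5 genes most like it in muscle had a symbol here. Among the 22 other features that the study paired with a symbol in its muscle list and that were tested, r ran from 0.94 for LMX1B to -0.86 for SIGLEC1. The 3 highest were LMX1B, a homeobox transcription factor (0.94), IFI47, an interferon-inducible GTPase (0.85), and ASCC2, a subunit of a complex that binds ubiquitin (0.76). ASCC2 here is XLOC_012438, an unannotated locus that the study paired with that symbol. The 3 lowest were CSF1, the macrophage growth factor (-0.83), the titin feature TTN (-0.86) and SIGLEC1, a macrophage lectin (-0.86). Since the study listed all of these for their difference between the same groups, a high or low r is what that choice gives.

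Removing the treatment means left a different order. In the within-group deviations of the 8 muscle libraries, LMX1B still had an r of 0.73 with ANKRD37. IFI47 had -0.78, ASCC2 -0.21, TTN -0.02 and SIGLEC1 -0.12. IFI47 had a muscle logFC of 6.84, so its CON level was far below that of supplemented calves, and its counts were not examined. These r rest on 8 deviations, and their spread over all genes was not examined. NPR3, a clearance receptor of natriuretic peptides, went from -0.66 over the 8 libraries to 0.68 within groups. Muscle LMX1B was 0.514, 1.32, 0.701 and 0.876 CPM in CON calves 1 to 4 and 1.52, 2.44, 3.18 and 2.69 CPM in calves 5 to 8, from 11 to 71 counts. Both genes were highest in calf 7 among supplemented calves and in calf 2 among CON calves. In adipose tissue LMX1B had at most 7 counts in a library and was not tested.

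**Figure D4:**
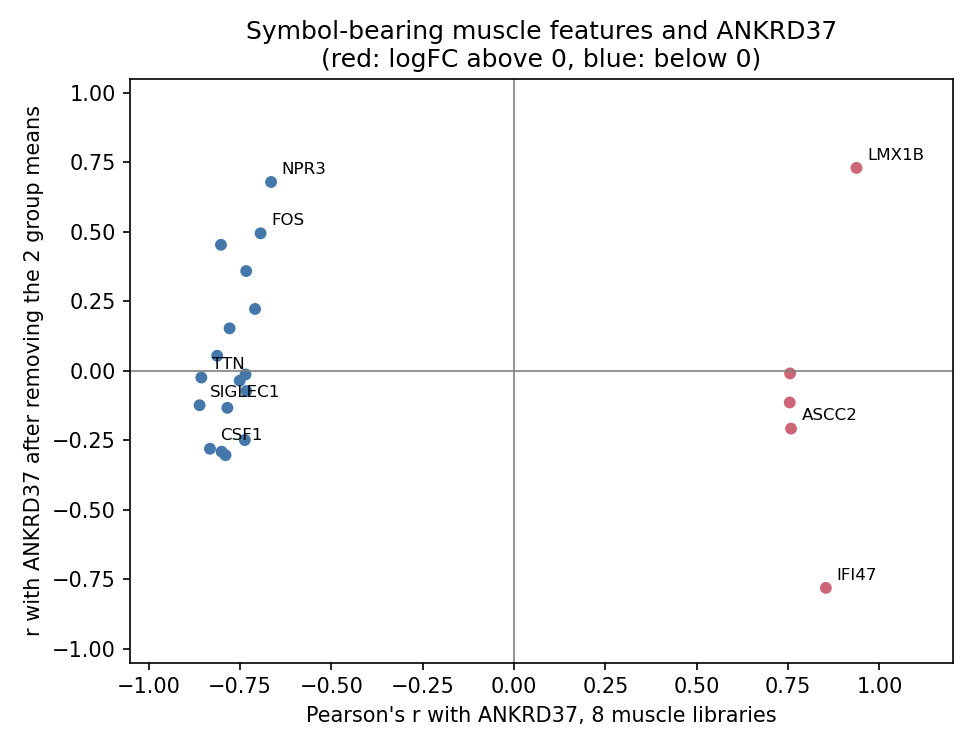
Pearson's r with ANKRD37 in muscle for the 22 features that the study paired with a symbol, over the 8 libraries (horizontal) and after subtracting the mean of each treatment group (vertical). Features higher in 5-HTP-supplemented calves (red) lie right and lower ones (blue) left, as their choice implies, while vertically they spread from -0.78 for IFI47 to 0.73 for LMX1B.

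Across the 8 adipose libraries, ENSBTAG00000025062 (r = 0.97, 11 to 29 counts) and XLOC_022180 (r = 0.96, 11 to 72 counts) were most like ANKRD37. Without calf 4 their r was 0.93 and 0.91, with calf 8, the next highest for ANKRD37, still included. Over all 16 libraries, after the means of the 4 groups were removed, ENSBTAG00000006838 came first (r = 0.95, 1128 to 5132 counts), followed by ENSBTAG00000010487 (r = 0.90). With the adipose libraries of calves 4 and 8 dropped, their r was 0.85 and 0.68. The group means removed beforehand still included both calves, so these values are not free of them. The median r over all genes was -0.01 in this comparison. ENSBTAG00000006838 had a logFC for 5-HTP of 0.20 in muscle and 0.40 in adipose tissue, where ANKRD37 had 1.24 and -0.35.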

How the data were processed

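RNA was sequenced by the study from adipose tissue and muscle of 8 calves (16 libraries, 4 per tissue and treatment). The authors trimmed reads with Trim Galore 0.4.4 (FastQC 0.11.7 for quality), aligned the rest to ARS-UCD1.2 using Hisat2, assembled transcripts by Cufflinks 2.2.1 for merging with the annotation, and tallied reads by gene through htseq-count. What they deposited are whole-number counts without normalization.

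A gene was kept if 4 or more libraries held 10 or more counts, and library sizes are sums over the kept genes. Each tissue was fitted by itself in R 4.3.3 with edgeR 4.0.16 (TMM, treatment alone, likelihood ratio test as in the study, Benjamini-Hochberg FDR across all genes, threshold 0.20). Tissues were compared in a fit of 4 groups over 16 libraries (threshold 0.05), whose FDR is not given for ANKRD37 because the muscle libraries chose it. Standard errors come from the negative binomial information. The steps were tested on simulated data. Alternatives included the quasi-likelihood test, DESeq2 1.42.0, other scalings and filters, and leaving out calves. Libraries of a group all differed beyond counting noise (smallest chi-square per degree of freedom 23.5). The Poisson intervals of the counts and the floors cover counting error only. The intervals of the logFC also include the fitted dispersion between calves.

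The gene and all lists were chosen with earlier results of these data known. Genes named besides ANKRD37 were the 5 most like it in each comparison (at most 2 without a symbol) and the 3 highest and 3 lowest of the study's muscle features with a symbol by r with it. NPR3 and the macrophage and adipocyte features were named after their values were seen. Symbols came from the study's supplementary tables. The RefSeq gene table gave an Ensembl identifier for 0 genes, so the planned lists of HIF pathway genes and cell type markers were not analysed here. Sequences were not used here.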

Additional observations from a re-analysis of the deposited data

Results flagged for a closer look

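In the adipose tissue of 5-HTP-supplemented calves, calf 8 had 5.56 CPM of ANKRD37, and its gap to the next calf was 0.890 of the range of the group, above Dixon's 95% limit for 4 values. In CON adipose tissue, calf 4 at 8.39 CPM had a gap of 0.813, just under that limit. Both gaps were taken on the CPM scale, and the flag can depend on that choice, since log2 CPM was not examined. About 1 in 20 groups passes the limit by chance, and 4 groups were examined.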

How the results depend on the processing

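The muscle logFC for 5-HTP kept its direction in all fits and lay between 1.23 and 1.24 under the 7 alternatives and between 1.14 and 1.33 with 1 calf left out. These values chose the gene, and their stability is no independent support. The quasi-likelihood test called 1 gene in muscle and 1 in adipose tissue, in place of 34 and 22, and dispersions shared over all 16 libraries called 12 in muscle, in neither case with ANKRD37 in muscle. The cause was not tested. With 1 calf left out, 4 (without CON calf 4) to 56 (without CON calf 3) genes were called in adipose tissue and 13 (without 5-HTP calf 5 or 8) to 188 (without CON calf 4) in muscle. The adipose logFC ranged from -0.89 to 0.47 with 1 calf left out, above 0 only without CON calf 4, and its FDR was at least 0.860 in every fit (edgeR and DESeq2). The tissue difference, which uses the muscle libraries that chose the gene, was 1.12 to 1.69 with 1 number left out, 0.11 with total counts and 0.48 in CON calves alone, and it reversed to -0.70 there with total counts, a setting chosen after the data were seen. Between 13550 and 14691 genes were called between tissues with 1 number left out. The difference between tissues in the logFC for 5-HTP ranged from 0.82 (without number 4) to 2.12. With the calf number as a replicate block, the tissue difference was 1.54 and the difference between tissues in logFC 1.43. The numbers were not taken as pairs, since the labels do not state it and the rule used asked for correlated deviations above 0.1 in all 8. Of the 8 same-numbered libraries, 5 had correlated deviations above 0.1 (-0.07 to 0.19). Among the muscle libraries of their own group, 6 of 8 adipose libraries correlated best with their own number. Whether equal numbers are the same calf was not settled. Of the 15 genes most like ANKRD37, 2 were also found with Spearman's rho and 15 with a smaller prior count. Depth gave a counting error of 8.91% to 14.9% per group.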

Other observations

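Values were also taken for the merged loci numbered directly before and after that of ANKRD37. ENSBTAG00000010351 had a logFC for 5-HTP of 0.29 in muscle and 0.31 in adipose tissue, and ENSBTAG00000034430 had -0.35 and 0.35, and neither was called in adipose tissue (FDR = 0.999 for each, likelihood ratio test of edgeR). Their r with ANKRD37 was 0.49 and -0.25 over the 8 muscle libraries and -0.19 and -0.03 over the 8 adipose libraries. Both were chosen by their number, and the files give no positions for them.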
